A study of Mus musculus with 64 samples.

Results

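Sox2, Sox9, Sox10 and Sox21 are transcription factor genes of the otic epithelium, and their signals were followed through mouse inner ear development. The members were all probe sets annotated to these 4 of 12393 genes, 7 of the 22626 probe sets on the array. Sox2 (1416967_at) and Sox21 (1451835_at) have 1 probe set each, Sox9 has 2 (1424950_at and 1451538_at), and Sox10 has 3 (1424985_a_at, 1425369_a_at and 1451689_a_at). All 7 passed the filter on low values, which asked for 2 arrays at or above the array median. Sox9 1451538_at reached that median on 17 of the 64 arrays and Sox10 1425369_a_at on 22, and the others on 62 to 64. Tissue came from CBA/J embryos, for which the labels name no transgene and no treatment, and each of the 64 arrays held RNA from 1 pool of dissected tissues. The 29 inner ear groups were the otic placode at E9, the otic vesicle at E9.5 and E10, the cochlea from E10.5 to E15, the E10.5 to E12 vestibular organ (without the endolymphatic duct), and the saccule and the utricle with its ampullae from E12.5 to E15. Non-inner ear tissue lying next to the ear formed 3 further groups, from E9, from E9.5 to E10.5 and from E11 to E15, the later 2 each pooled across stages. Each group had 2 arrays from different litters. The epithelium was freed with dispase for 8 to 10 minutes up to E10.5 and for 20 to 25 minutes from E11.

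Sox proteins bind DNA through an HMG box related to that of the sex-determining factor Sry. Sox2 is an activator of the SoxB1 group that maintains neural progenitors and is needed for the sensory patches of the ear, from which hair cells and supporting cells arise. Sox21 belongs to the SoxB2 group, whose members act mainly as repressors and counter SoxB1 factors in neural progenitors. Sox9 and Sox10 belong to the SoxE group. Sox9 acts in the otic placode during its invagination and is also the main regulator of cartilage, which forms around the ear, whereas Sox10 is made throughout the otic epithelium and in neural crest cells and glia.

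Values are MAS5 signals after quantile normalization (linear, with a floor of 10 in the deposited values), and differences are log2 of the signal plus 16 with their standard error (SE), from a limma model of all 64 arrays. The added 16 shrinks differences of dim probe sets. A probe set was called only with an adjusted p below 0.05 over 14014 probe sets and a difference of at least 1 log2, and "rose", "fell" and "called" are used only for those. Signals of different probe sets are not comparable with each other. The 2 arrays of a group had correlations of 0.942 to 0.991 over the probe sets. The epithelial markers (10 of 11 measured, among them Epcam, Cdh1 and Esrp1) summed to 5208 to 10997 on inner ear arrays and to 357 to 1524 on arrays of surrounding tissue, where Epcam lay at the floor from E9.5 on. These are whole tissues, so fewer cells of a type and less RNA per cell cannot be told apart.

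Both SoxB genes fell in the surrounding tissue and had their highest signals in the saccule. The sequences just before their start sites are shown here. The 250 bases upstream of the RefSeq start were available for Sox2 (GRCm38.p6, chr3:34649745-34649994, plus strand) and Sox21 (chr14:118237031-118237280, minus strand). Capitals mark matches to the SOX core (ACAAT or ACAAAG), the octamer core ATGCAAA and the CCAAT box, searched on both strands along with TATAAA.
Sox2: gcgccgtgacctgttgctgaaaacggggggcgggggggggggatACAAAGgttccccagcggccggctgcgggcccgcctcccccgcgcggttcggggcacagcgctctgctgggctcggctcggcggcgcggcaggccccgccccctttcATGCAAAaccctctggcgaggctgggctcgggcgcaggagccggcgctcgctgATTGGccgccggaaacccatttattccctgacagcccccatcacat
Sox21: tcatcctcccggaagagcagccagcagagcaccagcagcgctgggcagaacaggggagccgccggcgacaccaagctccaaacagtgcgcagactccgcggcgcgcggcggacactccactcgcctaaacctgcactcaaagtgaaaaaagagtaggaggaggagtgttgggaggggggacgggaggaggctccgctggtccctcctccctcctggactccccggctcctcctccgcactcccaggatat
Sox2 held a SOX core 206 to 201 bases before the start, an octamer core at 99 to 93 bases and a CCAAT box on the opposite strand at 46 to 42 bases. None of these letters occurred in the Sox21 window. Of 32851 RefSeq windows of this length, 38.8% held a SOX core, 4.12% the octamer core, 33.8% a CCAAT box and 12.4% TATAAA. Both windows were rich in G and C, at 72% for Sox2 and 65.2% for Sox21, against a median of 52.4%. A match is a description of letters and not of binding.

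Sox2 was about as bright in the early surrounding tissue as in the otic epithelium, and the contrast between them appeared only in the late pools. The 2 placode arrays at E9 read 399.7 and 286, and the surrounding tissue of that stage read 491 and 429. The otic vesicle read 661 and 518 at E9.5 and 532 and 404 at E10, beside 603 and 582 in the tissue pooled from E9.5 to E10.5. In the pools from E11 to E15 the surrounding tissue was at 38 and 43.6, below every one of the 58 inner ear arrays, whose lowest reading was 254. Placode and surrounding tissue thus did not overlap at E9 after normalization, while the vesicle arrays lay on either side of it.

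The Sox2 difference of placode minus surrounding tissue was -0.42 (SE 0.15, adjusted p = 0.0433), below the 1 log2 needed for a call, and -0.03 with the values as deposited (adjusted p = 0.907). Without single arrays it ran from -0.65 to -0.19, the latter without the second placode array (adjusted p = 0.530). In that comparison 6.04% of all probe sets were called. From E9.5 to E10.5 it was -0.33 (SE 0.12, adjusted p = 0.0363) against a background of 8.09% called, and 0.06 with the values as deposited, which turns its sign. From E11 to E15 Sox2 was higher in the inner ear by 3.10 (SE 0.11, adjusted p = 6.15e-24, 8.57-fold on the scale of signal plus 16), where 15.5% were called. Within the surrounding tissue Sox2 fell by 3.06 from E9 to the latest pools (SE 0.15, adjusted p = 8.50e-19), a comparison in which 20.8% were called. Hindbrain markers (9 of 13 measured) summed to 6438 to 7344 in the surrounding tissue at E9, 13209 to 13215 from E9.5 to E10.5 and 11339.8 to 11894 from E11 to E15. Neuron markers (12 of 12) summed there to 3719 to 4069.6, 25380.1 to 27429 and 21611 to 22470.0. Both sums were thus higher in the latest pools than at E9, while Sox2 was lower, and their part in the Sox2 values was not tested.

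Among the organs Sox2 was highest in the saccule. Its 12 saccule arrays ran from 481 to 1104 with a median of 762, the 12 arrays of the utricle with ampullae from 302 to 706 with a median of 577, and the 20 cochlea arrays from 302 to 495 with a median of 427. The 8 arrays of the vestibular organ were lowest among inner ear tissues, at 254 to 351 with a median of 282. Both saccule arrays exceeded both cochlea arrays at each of the 6 stages they share, as for 6.26% of all probe sets, and both utricle arrays, as for 3.38%. Both cochlea arrays exceeded both vestibular arrays at each of 4 stages, as for 7.35%.

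Sox21 was the member with the widest range of signals, and it separated the organs most. The placode read 1318 and 1339, and the vesicle read 2164 and 1509 at E9.5 and 1113 and 1252 at E10. The surrounding tissue was at similar readings early, 1013 and 1144 at E9 and 1348 and 1376 from E9.5 to E10.5. In the pools from E11 to E15 it read 10, the floor, and 102. Those 2 arrays differed widely from each other but both lay below the lowest inner ear reading of 283.

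Inner ear minus surrounding tissue was 0.30 for Sox21 at E9 (SE 0.32, adjusted p = 0.553) and -0.15 from E9.5 to E10.5 (SE 0.26, adjusted p = 0.686), the latter 0.30 with the values as deposited. Neither difference exceeded the spread between arrays. From E11 to E15 Sox21 was higher by 4.92 (SE 0.23, adjusted p = 2.80e-20). Its size depends on the 2 late surrounding arrays, of which 1 lay at the floor. Without that array the difference was 3.83, and without the other 6.01. In the surrounding tissue Sox21 fell by 4.30 from E9 (SE 0.32, adjusted p = 7.79e-14), and by 3.21 without the array at the floor.

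At the division of the ear the Sox21 readings parted. From 1113 and 1252 in the whole vesicle at E10 they went to 1579.8 and 1748 in the cochlea and to 453 and 422 in the vestibular organ at E10.5. The cochlea then stayed between 1783 and 2983 through E15, and the vestibular organ reached 814 and 686 at E12. The saccule was the brightest tissue, from 3974 and 3212 at E12.5 to 6317 and 5299 at E14 and 5349 and 4433 at E15. The utricle with ampullae began at 469 and 483 at E12.5, read 559 and 283 at E13, and ended at 1222 and 1323 at E15. All saccule arrays lay above all cochlea arrays, and all cochlea arrays above those of the vestibular organ and utricle. At every shared stage this held for 6.26% of probe sets between saccule and cochlea, 7.35% between cochlea and vestibular organ and 2.64% between cochlea and utricle.

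**Figure D1:**
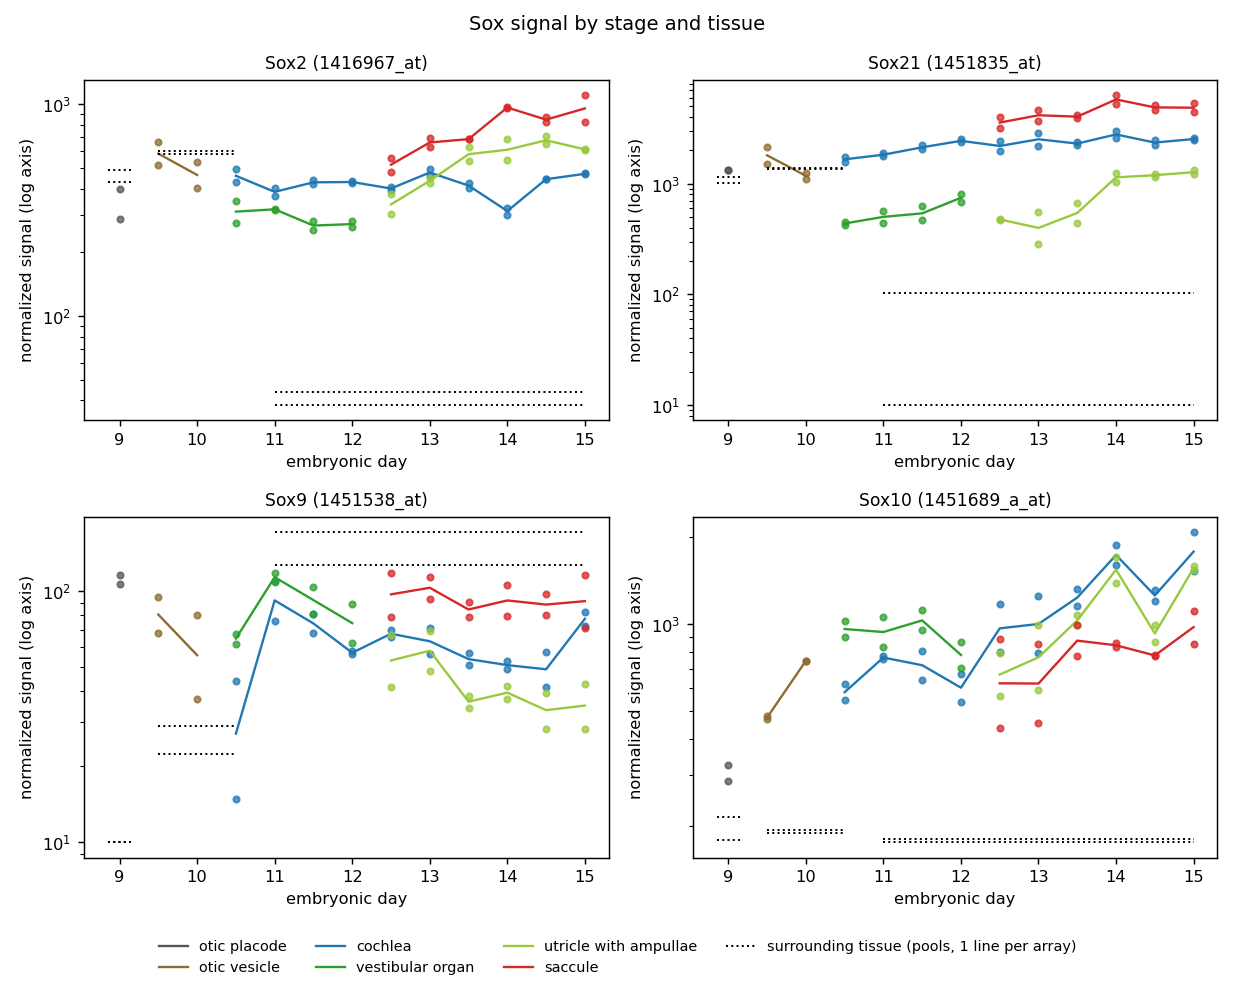
Normalized signal (log axis) against embryonic day for Sox2, Sox21, the Sox9 probe set 1451538_at and the Sox10 probe set 1451689_a_at; points are single arrays, lines join group means by tissue and dotted lines are the 2 arrays of each surrounding tissue pool. Sox2 and Sox21 of the surrounding tissue drop to 38 and 43.6 and to 10 and 102 in the pools from E11 to E15, while Sox9 there climbs from 10 and 10 to 127 and 172.

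Sox10 was nearly flat in the surrounding tissue and rose from the placode to the E10 vesicle on 1451689_a_at and 1425369_a_at. On the brightest of its 3 probe sets, 1451689_a_at, the placode read 286 and 326 and the vesicle 471 and 479 at E9.5 and 746 and 746 at E10. The surrounding tissue read 216 and 179.5, then 194 and 189, then 176 and 181. On 1425369_a_at the placode, at 20.7 to 22.1, lay within the range of the E9 surrounding tissue, 18.3 to 25. On 1451689_a_at, by contrast, every inner ear array was above every array of surrounding tissue. From the placode to the E10 vesicle this probe set rose by 1.24 (SE 0.26, adjusted p = 0.000524) and 1425369_a_at by 1.07 (SE 0.29, adjusted p = 0.00600), in a comparison that called 5.42% of probe sets. The second of these was 0.97 without the first E10 array. On 1424985_a_at the difference was 0.18 (SE 0.16), which was not a call.

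Against the surrounding tissue, Sox10 1451689_a_at differed by 0.60 at E9 (SE 0.26, adjusted p = 0.0916), which did not pass. It was called higher by 1.67 from E9.5 to E10.5 (SE 0.21, adjusted p = 2.89e-08) and by 2.29 from E11 to E15 (SE 0.19, adjusted p = 2.79e-13). The dimmer 1425369_a_at, at 11.9 to 25 in all surrounding tissue, was called at 1.03 (SE 0.23, adjusted p = 0.000543) and 1.51 (SE 0.21, adjusted p = 8.69e-08) in the same windows. Its earlier call was lost without any 1 of 4 arrays, at 0.87 to 0.99. The third, 1424985_a_at, was higher by 0.59 (SE 0.13) and 0.50 (SE 0.11), short of 1 log2 although its adjusted p was 0.000340 and 0.000348.

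The cochlea, followed from E10.5 to E15, showed a Sox10 increase with age. On 1451689_a_at it went from 619.8 and 546 at E10.5 through 675 and 539 at E12 to 2079 and 1527 at E15, and the fitted line rose by 1.56 over those days (SE 0.18, adjusted p = 2.06e-09) while 15.5% of probe sets were called. On 1425369_a_at it rose by 1.33 (SE 0.20, adjusted p = 5.00e-07) and on 1424985_a_at the slope gave 0.49 (SE 0.11, adjusted p = 0.000257). From E11 on, within a single dispase time, 1451689_a_at and 1425369_a_at were also called, the latter at 1.06. From E12.5 on they gave 0.83 and 0.95, below the threshold. A trend is the slope times the days spanned, so these totals over fewer days do not show a slower increase. Over E12.5 to E15 the cochlea trend minus the utricle trend was -0.23 (SE 0.31) and -0.16 (SE 0.34), neither a call. In the utricle with ampullae the same 2 probe sets rose by 1.06 (SE 0.22, adjusted p = 0.000252) and 1.11 (SE 0.24, adjusted p = 0.000495), in a comparison with 7.59% called; 1451689_a_at gave 0.89 without the first E12.5 array, 0.90 without the first E13 array and 0.98 without the E14 arrays, none of them a call. In the saccule the slopes were 0.58 (SE 0.22, adjusted p = 0.0402) and 0.66 (SE 0.24, adjusted p = 0.0355). Both were short of 1 log2, in a comparison with 7.08% called. Over those days cochlea trend minus saccule trend was 0.25 (SE 0.31, adjusted p = 0.691) and 0.29 (SE 0.34, adjusted p = 0.672). Neither was a call, so a smaller increase in the saccule was not shown. The vestibular organ gave -0.22 (SE 0.24) and -0.56 (SE 0.27), where 4.07% were called.

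The 2 arrays of a stage differed together at some ages. At E12.5 Sox10 1451689_a_at read 798 and 1171 in the cochlea, 564 and 792 in the utricle and 436 and 891 in the saccule. At E13 it read 798 and 1256, then 593 and 992, then 454 and 852. The second array was thus the higher one in all 3 tissues at both stages, by 0.48 to 1.00 log2, a spread as large as several of the differences between organs. At E14 the utricle read 1714 and 1391, above its 992 and 869 at E14.5.

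Sox9 was read by 2 probe sets annotated to the same transcript record, and they behaved differently. On 1424950_at every array lay between 191 and 441, with the placode at 411 and 387 and the latest surrounding tissue at 327 and 441. On the dimmer 1451538_at the placode read 116 and 106, the surrounding tissue read 10 and 10 at E9, 22.5 and 28.9 from E9.5 to E10.5, and 127 and 172 from E11 to E15. The surrounding tissue thus went from the lowest to the highest of all groups on this probe set. Across the 29 inner ear groups the 2 probe sets correlated at r = 0.36, a description over group means that share arrays and stages.

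At E9 the placode exceeded its surroundings by 2.29 on Sox9 1451538_at (SE 0.26, adjusted p = 1.19e-08), the only call among the 7 probe sets at that stage and a lower bound because both surrounding arrays lay at the floor. The other probe set differed by 0.52 (SE 0.14, adjusted p = 0.00773). From E11 to E15 the direction was the opposite, -0.96 (SE 0.19, adjusted p = 3.49e-05) and -0.42 (SE 0.10, adjusted p = 0.000864), neither reaching 1 log2. The first became -1.02 without the E11 arrays and -1.16 without the first late surrounding array, both calls. Within the surrounding tissue Sox9 1451538_at rose by 2.66 from E9 to the latest pools (SE 0.26, adjusted p = 5.58e-11), again at least that much, whereas 1424950_at differed by 0.46 (SE 0.14, adjusted p = 0.00841).

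The cartilage markers (5 of 8 measured) moved in the surrounding tissue in the same direction as Sox9 1451538_at. They summed to 264 to 282 at E9, with Matn1 and Cnmd at the floor, to 307 to 341 from E9.5 to E10.5 and to 9630.4 to 12903 from E11 to E15. Periotic mesenchyme markers (12 of 13) went from 3766 to 4072 through 5301 to 5929 up to 17572 to 19221. Within the ear the cartilage markers summed to 4262 to 6202 in the saccule, 2042.7 to 10576.5 in the utricle and 3489 to 8991 in the cochlea. The part of either marker list in the Sox9 values was not tested. On 1451538_at the saccule, at 71.3 to 118, exceeded the utricle, at 28.2 to 69.3, without overlap at each of 6 stages (3.38% of all probe sets), and the cochlea lay at 14.9 to 110.1.

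**Figure D2:**
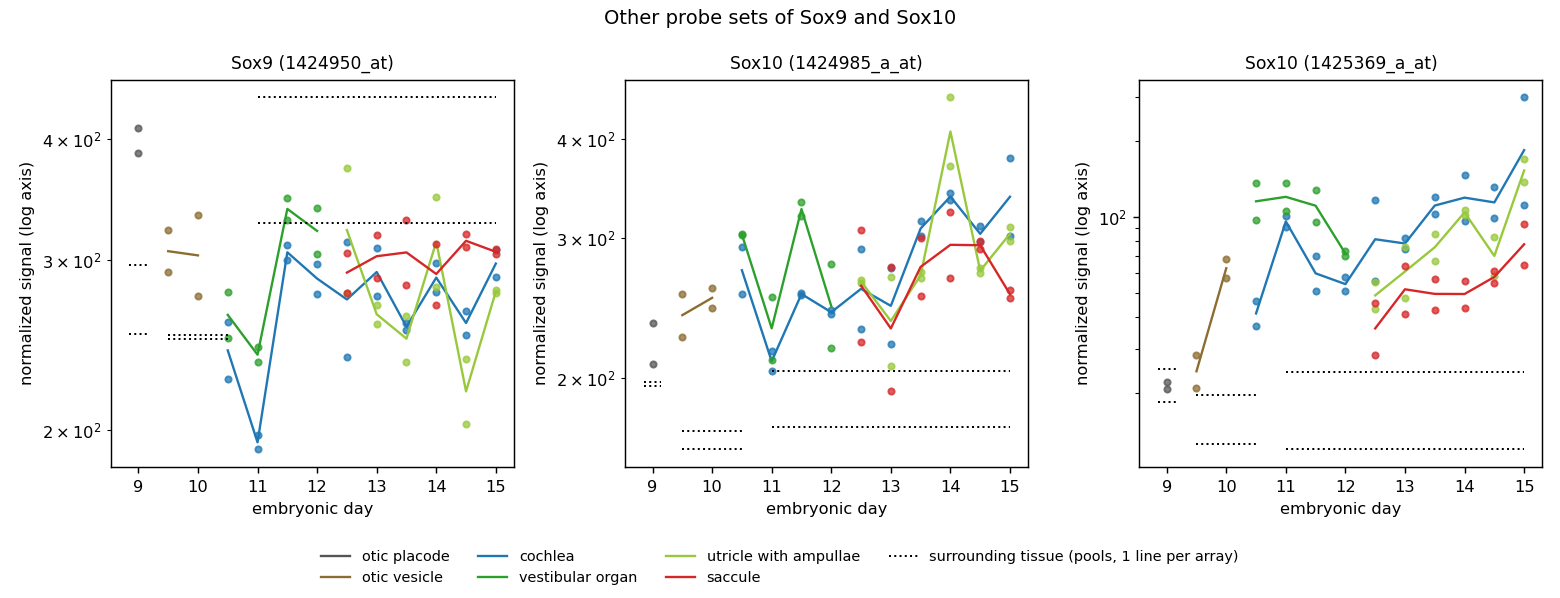
Normalized signal (log axis) against embryonic day for the Sox9 probe set 1424950_at and the Sox10 probe sets 1424985_a_at and 1425369_a_at, drawn as in the plot of the leading probe sets. The Sox9 probe set stays between 191 and 441 in all tissues, and of the Sox10 pair only 1425369_a_at spreads widely, from 11.9 in surrounding tissue to 299 in the E15 cochlea.

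Read together, 1 of the 7 probe sets was called between the placode and its surroundings at E9, 2 from E9.5 to E10.5 and 4 from E11 to E15. The called ones were Sox9 1451538_at at E9, the Sox10 probe sets 1451689_a_at and 1425369_a_at in the middle window, and in the late window this pair with Sox2 and Sox21. The remaining Sox10 probe set, 1424985_a_at, was called in none of the 3 windows. All were higher in the inner ear, the direction of 2.94%, 3.64% and 8.36% of all probe sets. The change of the contrast from E9 to the later stages was called for 5 probe sets, against 19.1% of all. It was 3.52 for Sox2 (SE 0.19, adjusted p = 3.27e-17), 4.62 for Sox21 (SE 0.40, adjusted p = 1.12e-11), 1.69 for Sox10 1451689_a_at (SE 0.32, adjusted p = 5.79e-05) and 1.52 for 1425369_a_at (SE 0.35, adjusted p = 0.000849). For Sox9 1451538_at it was -3.25 (SE 0.32, adjusted p = 2.34e-10) and for 1424950_at -0.94 (SE 0.18, adjusted p = 6.40e-05), the latter not a call, although it was one without the first E9 surrounding array (-1.05) or the first late one (-1.15). The Sox9 1451538_at value rests on E9 surrounding arrays at the floor and the Sox21 value on 1 late surrounding array at the floor, without which it was 3.53. These comparisons share the arrays of surrounding tissue.

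**Figure D3:**
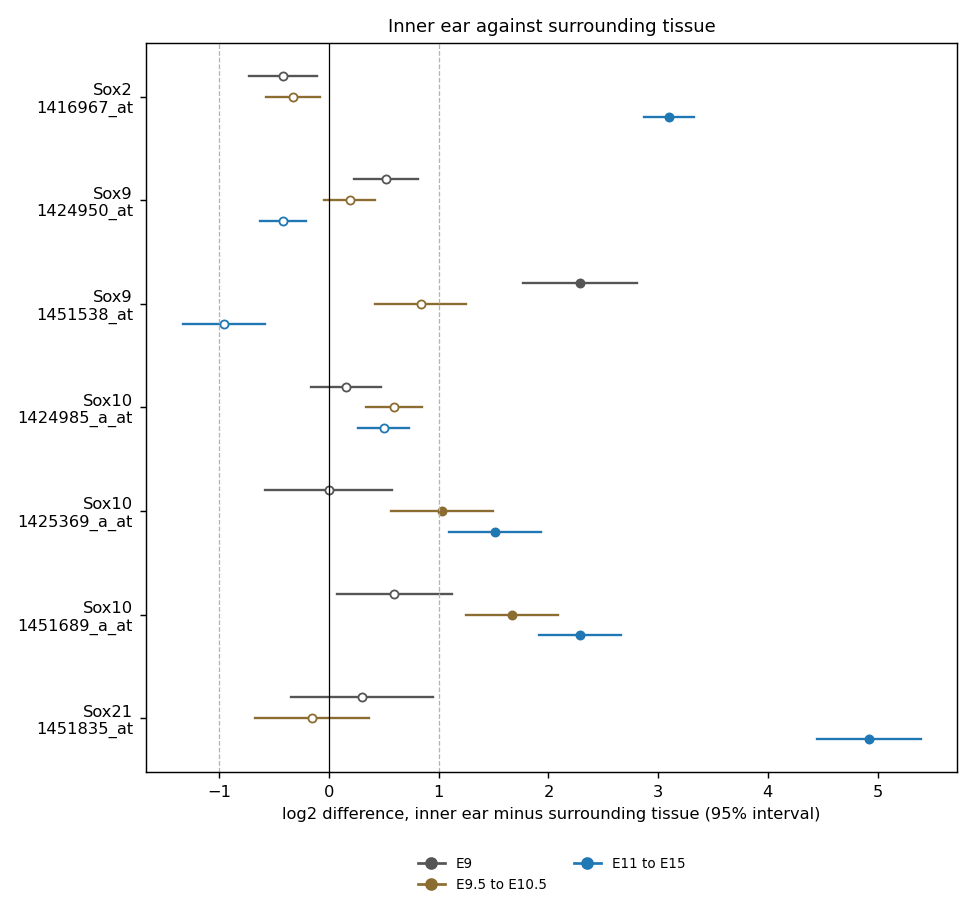
Log2 difference of inner ear minus surrounding tissue for each probe set at E9, from E9.5 to E10.5 and from E11 to E15, with 95% intervals; filled points were called, and dashed lines mark 1 log2 either way. Sox2 moves from -0.42 to 3.10 and Sox21 from 0.30 to 4.92, while Sox9 1451538_at moves from 2.29 to -0.96.

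Between organs of the same age, Sox21 was the only member called. It was higher in the cochlea than in the vestibular organ by 1.84 over 4 stages (SE 0.16, adjusted p = 1.11e-11), in a comparison with 1.31% of probe sets called. It was higher in the cochlea than in the utricle with ampullae by 1.68 (SE 0.13, adjusted p = 1.12e-13) over 6 stages, with 2.9% called, and higher in the saccule than in the utricle by 2.55 (SE 0.13, adjusted p = 3.27e-19), with 2.53% called. Cochlea minus saccule was -0.88 (SE 0.13, adjusted p = 5.87e-07), below 1 log2, in a comparison with 3.78% called. Over single stages it ran from 1.69 to 1.95 for cochlea minus vestibular organ, from 0.97 to 2.61 for cochlea minus utricle, from -3.33 to -1.92 for utricle minus saccule and from -1.05 to -0.70 for cochlea minus saccule.

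Sox2 differed between organs with small adjusted p but under 1 log2. Cochlea minus saccule was -0.84 (SE 0.06, adjusted p = 3.34e-14), saccule minus utricle 0.50 (SE 0.06, adjusted p = 2.46e-08), cochlea minus vestibular organ 0.52 (SE 0.08, adjusted p = 2.26e-06) and cochlea minus utricle -0.33 (SE 0.06, adjusted p = 5.22e-05). The last of these changed direction with stage: the cochlea lay above the utricle at 2 stages and below it at 4, and the stage values ran from 0.24 to -0.93. So the saccule had the highest Sox2 signal at each shared stage, and the order of the cochlea and utricle turned after E13.

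Sox10 ran the other way in the saccule. Cochlea minus saccule was 0.72 on 1451689_a_at (SE 0.11, adjusted p = 3.28e-07) and 0.88 on 1425369_a_at (SE 0.12, adjusted p = 5.10e-08), and cochlea minus vestibular organ was -0.47 (SE 0.13, adjusted p = 0.00653) and -0.64 (SE 0.14, adjusted p = 0.00100). On 1424985_a_at these were 0.14 (SE 0.06) and -0.16 (SE 0.08), which did not pass. For Sox9 1451538_at saccule minus utricle was 0.91 (SE 0.10, adjusted p = 3.80e-09) and on 1424950_at 0.14 (SE 0.06, adjusted p = 0.0528). None of these was a call.

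**Figure D4:**
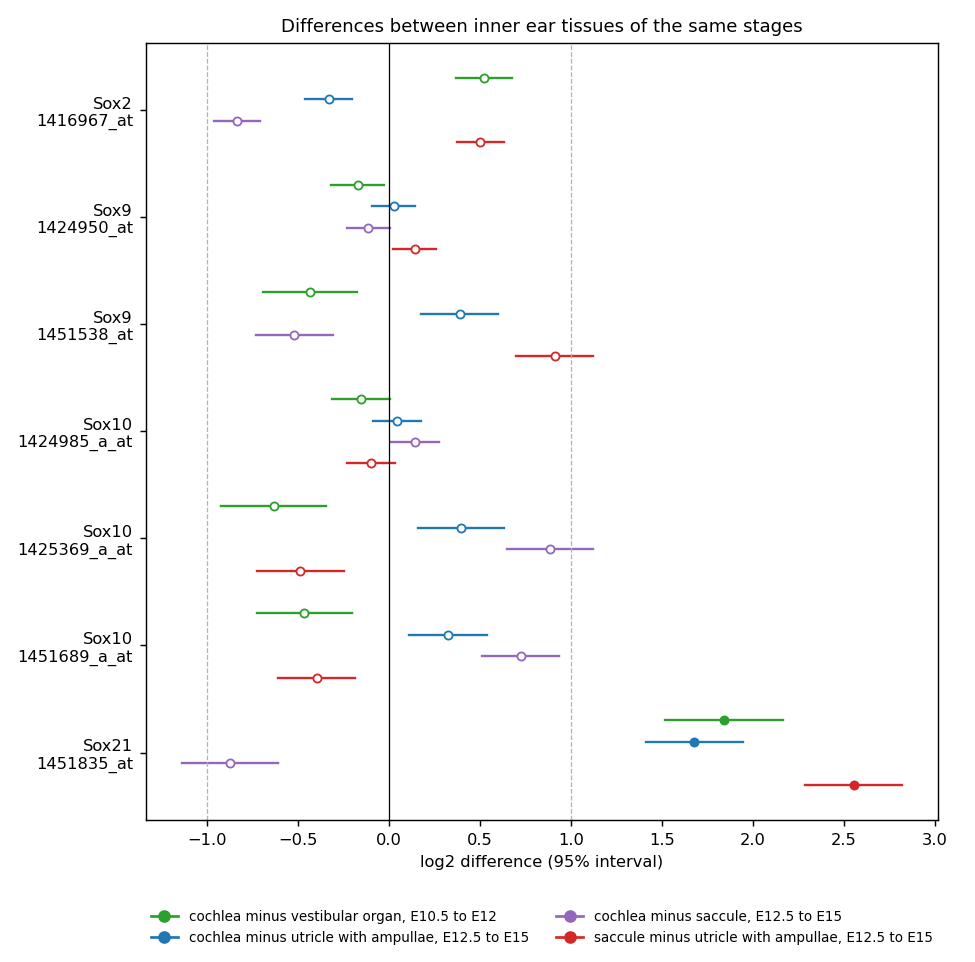
Log2 difference between inner ear tissues of the same stages for each probe set, with 95% intervals; filled points were called, and dashed lines mark 1 log2 either way. Only Sox21 has filled points, at 1.84, 1.68 and 2.55, and its cochlea minus saccule difference lies at -0.88.

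Marker lists of other cell types also differed between the organs. Neural crest and glia markers (8 of 10 measured) summed to 1578 to 5062 in the saccule, 950.2 to 2296 in the utricle and 711 to 1669.6 in the cochlea, and their member Tfap2b lay at the floor on both arrays of every saccule group. Hindbrain markers summed to 1938 to 3505 in the saccule, 721 to 1608 in the utricle and 662 to 2909 in the cochlea. Hair cell markers (10 of 11) reached 11599 in the saccule, 7309.7 in the utricle and 2396 in the cochlea. Whether such cells take part in the Sox differences was not tested.

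With age, Sox21 rose in the utricle but was not called in the cochlea or the saccule. It rose by 1.80 in the utricle with ampullae over E12.5 to E15 (SE 0.27, adjusted p = 2.40e-06). Over the same days the trend was 0.49 in the saccule (SE 0.27, adjusted p = 0.178) and 0.14 in the cochlea. Over its longer span from E10.5 the cochlea gave 0.54 (SE 0.23, adjusted p = 0.0409). Cochlea trend minus utricle trend over E12.5 to E15 was -1.66 (SE 0.38, adjusted p = 0.00430), a call in a comparison with 4.05% called. Cochlea trend minus saccule trend was -0.35 (SE 0.38, adjusted p = 0.649, interval -1.13 to 0.43). In the earlier vestibular organ, from E10.5 to E12, the Sox21 slope was 0.71 (SE 0.31, adjusted p = 0.108).

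The Sox2 slope was 0.87 in the utricle (SE 0.13, adjusted p = 2.03e-06) and 0.84 in the saccule (SE 0.13, adjusted p = 3.25e-06), both short of 1 log2. In the cochlea it was -0.03 from E10.5 (SE 0.11, adjusted p = 0.857) and 0.06 over the same days as the utricle and saccule. The saccule went from 481 and 559.7 at E12.5 to 1104 and 828 at E15 and the utricle from 302 and 376 to 617 and 609. The cochlea read 428 and 494 at E10.5 and 467 and 473 at E15, with its lowest pair, 325 and 302, at E14. The differences of the cochlear slope from E12.5 were -0.81 from the utricle (SE 0.18, adjusted p = 0.00350) and -0.78 from the saccule (SE 0.18, adjusted p = 0.00365), neither a call, with 4.84% called in the latter comparison.

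Ordered by their mean over the 32 groups, neighbouring groups mostly did not differ beyond their spread. For Sox2 the saccule at E14, E15 and E14.5 came first and only 2 gaps between neighbours exceeded 2 standard errors of their difference, the one after E14.5 and the one above the latest surrounding tissue. For Sox21 the 6 saccule groups came first, then the cochlea from E11 to E15, and the only such gap was that above the latest surrounding tissue, at 2.90 log2. For Sox10 1451689_a_at the E15 and E14 cochlea led, and the gaps below the E9.5 vesicle (0.61) and below the placode (0.60) exceeded 2 standard errors. For Sox9 1451538_at only the gap above the E9 surrounding tissue did so, at 0.68.

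Over the 29 inner ear groups, Sox2 and Sox21 correlated at r = 0.62, Sox2 and Sox10 1451689_a_at at 0.04, and Sox21 and Sox10 1451689_a_at at 0.00. The Sox10 probe sets correlated with one another at 0.54, 0.73 and 0.90. Of 9351 other genes, those most like Sox2 were Gad1 (0.85), Gfi1 (0.85), Tmcc2 (0.85), Slc23a2 (0.85) and Dlk2 (0.84). Gfi1 encodes a hair cell transcription factor and lay at the floor on both arrays of 13 of these 29 groups. Most like Sox21 were Rspo2 (0.85), a Wnt signal enhancer, Atp2b2 (0.85), a calcium pump of hair bundles, Cxcl12 (0.84), Socs2 (0.83) and Cyp4v3 (0.81). Those most like Sox10 were Pold4 (0.93), Nf2 (0.91), Slc25a28 (0.91), Fbrs (0.90) and Prkcd (0.90), with 131 genes above 0.8. The Sox9 probe set 1424950_at had no gene above 0.8, the highest being Fgd3 (0.79), Serpina10 (0.76), Lpar1 (0.74), Nnmt (0.72) and Smad3 (0.72). The group means share stages and tissues, so these values describe likeness of pattern over the same arrays.

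Genes known to act with Sox2 in the prosensory epithelium were followed as a list of 21, of which 17 were measured. From E11 to E15, 6 showed a call above the surrounding tissue and 1 (Cdkn1b) below it, where 8.36% of all probe sets were called higher and 7.15% lower, with a median of 0.65 against -0.01 over all 9352 genes. The Notch effectors Hey1 (2.46, SE 0.12) and Hey2 (2.17, SE 0.20) and the LIM-homeobox gene Isl1 (2.07, SE 0.19) led, and the cell cycle inhibitor Cdkn1b (-1.07, SE 0.27) was lower. At E9 only Gata3 was called (2.26, SE 0.28). In the cochlea, where the Sox2 slope was near 0, 7 members rose with age and none fell, against 7.54% and 7.91% of all probe sets (median 0.76 against 0.06), with Cdkn1b (2.13, SE 0.27), Bmp4 (1.95, SE 0.15) and Atoh1 (1.80, SE 0.13) first. Cochlea minus saccule split the list, with 4 higher and 2 lower, against 1.76% and 2.03% of all probe sets: Gata3 (3.61, SE 0.11) and Bmp4 (3.00, SE 0.09) were higher, and the hair cell factors Gfi1 (-4.12, SE 0.09), partly at the floor in the cochlea, and Atoh1 (-2.14, SE 0.08) were lower.

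Cartilage-type genes known as Sox9 targets, mostly matrix genes (15 of 16 measured), changed both in the ear and around it. Besides matrix genes the list held Cspg4 and the Sox9 partners Sox5 and Sox6, which enter its counts and sums. They summed to 2702 to 2935 in the placode, 8271 to 32038 in the cochlea, 13530 to 27795 in the saccule and 11377 to 37524 in the utricle. In the surrounding tissue they summed to 1869 to 2265 at E9 and to 26459 to 30082 from E11 to E15. From E9 to the latest pools 14 rose and none fell, where 20.8% of all probe sets were called in either direction, with a median of 3.83 against 0.00 over all genes, led by Col9a3 (7.14, SE 0.17), Cnmd (6.93, SE 0.16) and Matn4 (6.52, SE 0.44). Of these Cnmd was at the floor at E9. From E9.5 to E10.5, 6 were called above the surrounding tissue and 1 below it, against 3.64% and 4.45% of all probe sets, the collagen genes Col9a3 (5.15, SE 0.14) and Col9a2 (2.11, SE 0.41) and Cnmd (2.71, SE 0.12) among the higher ones. From E11 to E15, none was called higher and 6 were called lower, against 8.36% and 7.15%, Matn4 (-4.64, SE 0.32), Cspg4 (-4.54, SE 0.23) and Matn1 (-4.51, SE 0.16) the most. Within the ear 5 rose in the cochlea and 7 in the utricle, against 7.54% and 4.74% of all probe sets, with Mia at 7.09 (SE 0.21) in the cochlea and Matn4 at 5.27 (SE 0.37) in the utricle.

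Glial and neural crest genes known as Sox10 targets (9 of 13 measured) did not move as a block. The neuregulin receptor gene Erbb3 was higher in the inner ear in each window, by 2.59 (SE 0.17) at E9, 3.94 (SE 0.14) from E9.5 to E10.5 and 3.78 (SE 0.12) from E11 to E15. In the last window the myelin gene Mbp (1.46, SE 0.13) was also higher and the melanosome gene Pmel (-2.11, SE 0.33) lower, against 8.36% and 7.15% of all probe sets, and the list's median was 0.24. In the cochlea Pmel (2.12, SE 0.32) and the myelin gene Cnp rose with age, against 7.54% of all probe sets, and the median was 0.32 against 0.06.

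Otic placode genes (15 of 18 measured) and proneural genes of the otic ganglion (6 of 10) served as further lists. Of the placode genes 3 were called higher than in surrounding tissue at E9 and none lower, against 2.94% and 3.1% of all probe sets, namely Spry2 (1.45, SE 0.49), Tbx2 and Bmp7 (1.34, SE 0.15), with a median of 0.30 against -0.05. Of the proneural genes none was called at E9, where 6.04% of all probe sets were called. Neurod1 rose from the placode to the E10 vesicle (3.85, SE 0.22), as did 3.53% of all probe sets. It fell in the cochlea (-5.10, SE 0.16), as did 7.91%. Neurod1 is 1 of the 6 measured genes and does not stand for the list.

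Of 16 further Sox genes 10 were measured. At E9 only Sox17, an endothelial factor, was called, and it was lower in the placode (-2.07, SE 0.29), as were 3.1% of all probe sets. From E11 to E15 Sox11 (1.48, SE 0.16) and Sox13 (1.22, SE 0.27) were higher in the inner ear and Sox4 (-1.44, SE 0.40) and Sox17 (-1.37, SE 0.21) lower, against 8.36% and 7.15% of all probe sets, with a median of -0.56. Sox5 (1.61, SE 0.24) and Sox6 (1.51, SE 0.20), partners of Sox9 in cartilage, rose in the surrounding tissue from E9 to the latest pools, and Sox3, a SoxB1 gene like Sox2, differed there by 0.29 (SE 0.19), which was not a call.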

How the data were processed

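RNA of 64 pools (2 per group, 32 groups) was measured on Affymetrix arrays. The deposited intensity values are linear signals per probe set. The submitters' processing notes name MAS5 as the authors' tool, and its version is not given there. Each array has a floor of exactly 10, at which 5.43 to 12.04% of values lie, and array medians of 64.7 to 107.6. All values were quantile normalized and taken as log2(signal + 16). Of 22626 probe sets, 15337 were at or above the array median on at least 2 arrays, and the 14014 with 1 gene symbol were tested, each by itself. limma 3.58.1 in R 4.3.3 fitted 1 coefficient per group (32 residual degrees of freedom, variance trend); contrasts were two-sided with Benjamini-Hochberg adjustment. Windows average stages equally; trends are least-squares slopes times the days spanned. The code was tested on simulated data. P-values measure the spread between pools.

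Genes named are the members, per list up to 3 called genes each way, and the 5 most alike; lists use 1 probe set per gene. Members and lists were chosen with earlier results of these data known. Equal replicate numbers deviated together: 18 of 22 same-stage pairs correlated above 0.1 (-0.49 to 0.57), including all 6 of cochlea with utricle. Sequences are from RefSeq (GRCm38.p6), and upstream windows were available for 2 of the 4 genes.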

Additional observations from a re-analysis of the deposited data

Results flagged for a closer look

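For 6 probe set comparisons the same contrast gave different effects in 2 tissues or ages, by the test of the difference itself in limma. The late inner ear contrast with surrounding tissue (E11 to E15) minus that at E9 was 3.52 for Sox2, 4.62 for Sox21, 1.69 for Sox10 1451689_a_at and 1.52 for Sox10 1425369_a_at. For Sox9 1451538_at it was -3.25, the opposite direction, and at E9 both of its surrounding arrays lay at the floor. The Sox21 value rests on 1 late surrounding array at the floor, without which it was 3.53. The cochlear trend of Sox21 minus its utricle trend over E12.5 to E15 was -1.66.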

How the results depend on the processing

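No call of the 7 probe sets reversed under any alternative run, and the calls of Sox2 and Sox21 held under each. With the values as deposited, calls were added for Sox10 1451689_a_at at E9 (1.03), Sox9 1451538_at from E9.5 to E10.5 (1.06) and Sox9 1424950_at late minus E9 (-1.11). There the median of all probe sets moved to 0.35 at E9, 0.34 from E9.5 to E10.5, 0.14 from E11 to E15, 0.20 and 0.12 in the cochlear and vestibular trends, -0.26 for cochlea minus vestibular organ and -0.24 for late minus E9. Higher calls became 88.8% at E9 (from 48.7), 76.0% (45.0), 67.6% (53.9), 61.9% (48.8), 68.3% (51.9), 12.8% (41.5) and 36.6% (56.7) in the same order. Counts of calls went from 846 to 1609 at E9 and from 183 to 298 for cochlea minus vestibular organ.

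With a pseudocount of 1, Sox9 1451538_at was called from E9.5 to E10.5 (1.12), from E11 to E15 (-1.12), from placode to vesicle (-1.01) and for saccule minus utricle (1.14), and Sox10 1425369_a_at for cochlea minus saccule (1.06). With 64, Sox10 1425369_a_at lost its calls: 0.53, 0.83, 0.57, 0.92, 0.75 and 0.83 for the middle and late windows, placode to vesicle, the cochlear and utricle trends and late minus E9. A larger pseudocount shrinks dim probe sets by construction, and 64 also cut all 16 counts of calls by more than 1.5 times, as from 846 to 412 at E9. Without the E14 arrays the utricle trend of Sox10 1451689_a_at was 0.98, and without the E11 arrays Sox9 1451538_at from E11 to E15 was -1.02. From E12.5 on the cochlear Sox10 trends were 0.95 (1425369_a_at) and 0.83. These are totals over fewer days, and a shorter span lowers a total at an equal slope. Causes of the other changes were not tested.

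A replicate block changed no call of a member, and it left every difference the same because each group held both replicates. Between organs of the same stage the block was set per stage. There Sox21 in cochlea minus utricle kept 1.68, with an SE of 0.06 in place of 0.13. For the other comparisons it was a single offset over all stages. That offset does not take out shifts shared by the tissues of a stage, so the trends and contrasts with surrounding tissue were not checked for these. Leaving out 1 array ended 7 calls and added 4, in 6 results. These ranged from -1.26 to -0.40 (Sox9 1451538_at) and 0.97 to 1.17 (Sox10 1425369_a_at) for placode to vesicle, 0.87 to 1.19 for Sox10 1425369_a_at from E9.5 to E10.5, -1.16 to -0.77 for Sox9 1451538_at from E11 to E15, -1.15 to -0.73 for Sox9 1424950_at late minus E9, and 0.89 to 1.23 for the Sox10 1451689_a_at utricle trend. The count of calls for cochlear minus utricle trend, 568, was 363 to 974 without single E15 cochlea or E12.5 utricle arrays.

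Other counts of calls that moved by more than 1.5 times were cochlea minus vestibular organ with a pseudocount of 1 (306) and placode to vesicle with only those groups fitted (420 against 760). So did the cochlear trend from E12.5 (865 against 2166) and the vestibular trend from E11 (325 against 570), both totals over fewer days. With 1 probe set per gene fewer features were tested and 9 counts fell by that much, as from 846 to 555 at E9.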
